A study of Mus musculus with 8 samples.

Results

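The genes described here are those of glucose breakdown to lactate, of lactate export and of the hypoxia response: the glucose transporters, hexokinases and glycolytic enzymes, lactate dehydrogenases, monocarboxylate transporters, the pyruvate dehydrogenase branch, the HIF oxygen-sensing genes and 3 HIF targets. They were chosen by name, and 40 of the 41 listed symbols were found among the 22609 genes counted; Pkm was not, and muscle-type pyruvate kinase stands under its older symbol Pkm2. They were measured in 8 bulk RNA-seq libraries made from liver CD8 T cells of male C57BL/6J mice aged 6 weeks. Every mouse was dosed on day 0, 3 and 6 with αCD137, an agonist antibody to a costimulatory receptor, and its liver was collected on day 8; no untreated group was analysed here. Sorted cells were alive, positive for CD45, TCRβ and CD8α, negative for CD4, NK1.1 and MHCII, and had the effector profile KLRG1+ CD127-. Surface CD11c, an integrin chain best known from dendritic cells, then divided them: 4 libraries are CD11c+ and 4 are CD11c-. Whether the 4 libraries of a subset came from separate mice is not stated in the labels, so each p-value covers the spread among these libraries alone, and that spread may be technical. In bulk libraries, fewer cells carrying a transcript and less transcript per cell cannot be told apart.

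Glycolysis splits glucose into pyruvate, and activated T cells turn much of that pyruvate into lactate, which leaves the cell through monocarboxylate transporters. Pyruvate that is not made into lactate enters mitochondria through the pyruvate dehydrogenase complex, which pyruvate dehydrogenase kinases switch off. HIF-1, a dimer of Hif1a and Arnt, raises transcription of many of these genes when oxygen is low or when T cell receptor signalling is strong, and prolyl hydroxylases of the Egln family with Vhl mark Hif1a for breakdown.

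Both subsets expressed the glycolytic genes from uptake to lactate export, and no gene was called different between them. Over the 8 libraries the highest counted levels per kb of exon were those of Ldha (717 CPM), Aldoa (438), Pkm2 (318) and Tpi1 (212). CPM here are gene counts scaled to a common library size with TMM factors. The levels of Gapdh, Pgk1, Pgam1 and Eno1 are uncertain for the sequence copies described below, so their true place in that ranking is not known. The genes that came nearest to a difference were the glucose transporters Slc2a1 (0.738-fold, CD11c+ over CD11c-) and Slc2a3 (1.31-fold), which leaned in opposite directions, the pyruvate dehydrogenase subunit Dlat (1.45-fold) and the oxygen sensor Egln2 (0.759-fold). None of the 31 tested genes passed edgeR's quasi-likelihood test after Benjamini-Hochberg adjustment over all genes, where the lowest adjusted p was 0.923. Over all 10073 tested genes that test called 5, or 0.0496%. DESeq2 and limma voom also called 0 of the genes to which they gave an adjusted p, against 0.461% and 0.189% of all genes. At an unadjusted p under 0.05 there were 4 of 31, 2 higher and 2 lower in CD11c+ cells, against 4.7% of all tested genes. The median log2 fold change, CD11c+ minus CD11c-, was 0.05 over the 31 genes and 0.01 over all tested genes, with 20 of the 31 above 0 and 11 below. The 9 genes with too few reads to test were Hk3, Pfkfb4, Eno1, Eno2, Ldhb, Pdk2, Egln3, Vegfa and Bnip3.

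**Figure D1:**
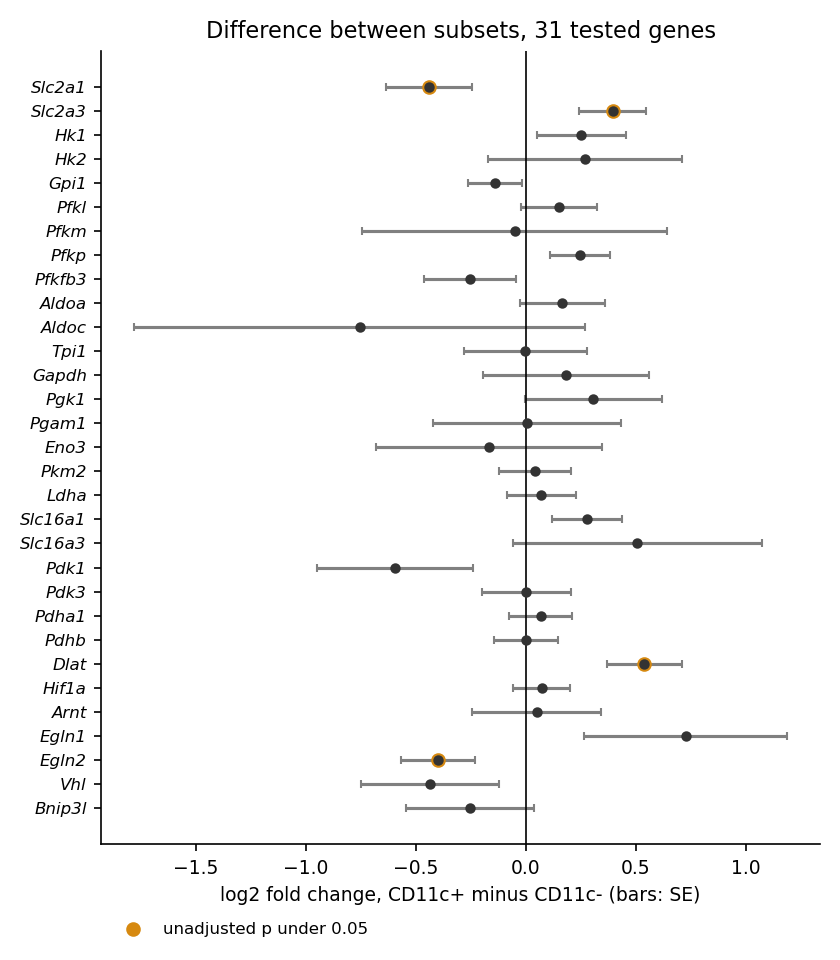
Log2 fold change in CD11c+ minus CD11c- libraries (horizontal axis) for the 31 tested genes, listed by role from glucose uptake at the top to HIF targets at the bottom; points are edgeR estimates and bars their standard errors. Orange rings mark the 4 genes with an unadjusted p under 0.05, Slc2a1, Slc2a3, Dlat and Egln2, none of which passed after adjustment.

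HIF-1 binds the core ACGTG or GCGTG. In RefSeq windows from 250 bases before to 50 after a gene start (build GRCm38.p6), 33 of the 38 matched genes held at least 1 core on either strand in any of their windows, or 86.8%, against 69.5% of 7247 tested genes with a window and 46.7% of all 27025 genes in the table. The E-box CACGTG, the site of Myc and other factors, contains the core on both strands and so counts as 2 cores; 8 of the 38 genes held it (21.1%, against 12.2% and 8.09%). Slc2a3 and Bnip3l were not matched, and the 38 include genes with too few reads to test. Counted per window, 42 of 54 held a core (77.8%), against 43.8% of all 32851 windows. A window is printed for Slc2a1, Egln2 and Dlat, which came nearest to a difference, and for Ldha, the gene with the highest counted level per kb. Letters are in lower case with each core in capitals. Where a gene has several windows, the one with the most cores is printed. Slc2a1 (chr4:119108495-119108794, plus strand) held 2 cores, Ldha (chr7:46845554-46845853, plus strand) 7 including a pair of E-boxes, Egln2 (chr7:27166753-27167052, minus strand) 6 including 1 E-box and Dlat (chr9:50659731-50660030, minus strand) 0. The other window of Ldha (chr7:46846832-46847131) held 2 cores and that of Egln2 (chr7:27165679-27165978) 1, neither with an E-box.
Slc2a1: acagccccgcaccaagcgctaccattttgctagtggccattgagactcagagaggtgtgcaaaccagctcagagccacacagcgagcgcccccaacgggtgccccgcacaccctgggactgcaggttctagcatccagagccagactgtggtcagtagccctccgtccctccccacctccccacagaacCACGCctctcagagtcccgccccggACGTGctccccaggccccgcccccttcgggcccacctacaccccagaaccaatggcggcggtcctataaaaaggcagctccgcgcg
Ldha: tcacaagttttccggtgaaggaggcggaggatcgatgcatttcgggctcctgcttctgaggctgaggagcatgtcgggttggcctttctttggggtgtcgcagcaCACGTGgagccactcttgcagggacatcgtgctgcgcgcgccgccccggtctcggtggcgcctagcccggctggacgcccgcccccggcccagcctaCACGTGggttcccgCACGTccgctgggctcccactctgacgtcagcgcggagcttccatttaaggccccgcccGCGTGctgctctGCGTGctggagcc
Egln2: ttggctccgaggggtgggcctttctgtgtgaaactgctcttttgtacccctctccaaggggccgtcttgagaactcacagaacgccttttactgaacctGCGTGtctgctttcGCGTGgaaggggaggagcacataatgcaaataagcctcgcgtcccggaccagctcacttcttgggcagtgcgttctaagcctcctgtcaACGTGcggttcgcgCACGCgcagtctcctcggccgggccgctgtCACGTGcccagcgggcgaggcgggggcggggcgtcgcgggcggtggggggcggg
Dlat: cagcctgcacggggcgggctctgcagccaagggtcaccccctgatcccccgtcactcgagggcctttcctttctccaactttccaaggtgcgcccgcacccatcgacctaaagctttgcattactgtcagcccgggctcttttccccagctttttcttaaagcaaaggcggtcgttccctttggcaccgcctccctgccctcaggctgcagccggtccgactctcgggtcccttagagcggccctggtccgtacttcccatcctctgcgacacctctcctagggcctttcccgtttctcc
A match says that these letters are present, not that a factor binds there.

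The libraries held 5090345 to 7093163 reads in genes and 10482 to 12581 genes with a read, and these genes together took 0.569% to 0.847% of the gene reads. CD8 T cell markers (10 genes) summed to 9429 to 10870 CPM in CD11c+ libraries and to 9810 to 10660 in CD11c- libraries. Itgax, which encodes CD11c, was the 1 called marker of 8 in the dendritic cell list, at a log2 fold change of 4.60 (SE 0.36, adjusted p = 0.000136). Monocyte and Kupffer cell markers (10 genes, 4 tested, none called) summed to 93.9 to 372 CPM in CD11c+ and 94.7 to 203 in CD11c- libraries. Neutrophil markers (5 genes, 4 tested, none called) summed to 2.27 to 281 and 7.003 to 111 CPM. Both lists were highest in CD11c+ library 3. NK and ILC1 markers (8 genes, none called) leaned to CD11c+ cells, at 235.8 to 359.5 CPM against 205.8 to 238.3 CPM. Of their 4 tested genes, Xcl1 did not overlap (41.6 to 71.9 CPM against 15.8 to 33.3, adjusted p = 0.526 by edgeR), as for 3.44% of all tested genes. Tyrobp, Fcer1g and Eomes overlapped. Eomes made up most of the NK and ILC1 sum in every library, at a mean of 183 CPM in CD11c+ and 177 in CD11c- cells. The untested Ncr1, Klrb1b and Klra8 had at most 10, 3 and 0 reads in any library, and Klrb1c at most 46. Hepatocyte markers stayed at 0.196 to 43.3 CPM, with Pklr and Cps1 at 0 reads in every library.

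Glucose enters T cells through GLUT1, encoded by Slc2a1, and GLUT3, encoded by Slc2a3. In libraries 1 to 4, the order used throughout, Slc2a1 stood at 139.6, 158, 125 and 246 CPM in CD11c+ cells and at 207, 209, 223 and 268 CPM in CD11c- cells. Only CD11c+ library 4 reached into the CD11c- range. The log2 fold change was -0.44 (SE 0.20, adjusted p = 0.991); it was -0.69 without CD11c+ library 4 and -0.26 by limma voom. Slc2a3 stood at 270.2, 265, 196 and 284 CPM in CD11c+ cells and at 154, 208, 190.4 and 219.9 CPM in CD11c- cells. Only CD11c+ library 3 lay among the CD11c- values, and the log2 fold change was 0.39 (SE 0.15, adjusted p = 0.990), or 0.21 without the 3 libraries of fewest detected genes. Per kb of exon the transporters were at like levels over the 8 libraries, 60.4 CPM for Slc2a1 and 56.5 for Slc2a3.

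Set against each other within a library, the transporters separated the subsets. Slc2a1 took 34.1%, 37.4%, 38.9% and 46.4% of the reads of both genes in CD11c+ cells, and 57.3%, 50.0%, 53.9% and 54.9% in CD11c- cells. The subsets did not overlap: Slc2a3 had more reads than Slc2a1 in all 4 CD11c+ libraries, and Slc2a1 had as many or more in all 4 CD11c- libraries. The mean share was 39.2% ± 5.20 against 54.0% ± 3.03 (SD, n = 4 each), a difference of -14.9 percentage points. An exact two-sided permutation test gave p = 0.0286, the smallest that 4 against 4 libraries allow, and an adjusted p of 0.286 over the 10 isoform shares compared. The other 9 shares overlapped between subsets, with adjusted p from 0.571 to 0.914. After division by transcript length the difference was -15.0 points, and with 1 library left out at a time it ran from -17.3 to -13.2. The share rests on 1801 to 3400 reads per library, and neither gene shares a 50-base stretch with another annotated transcript.

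**Figure D2:**
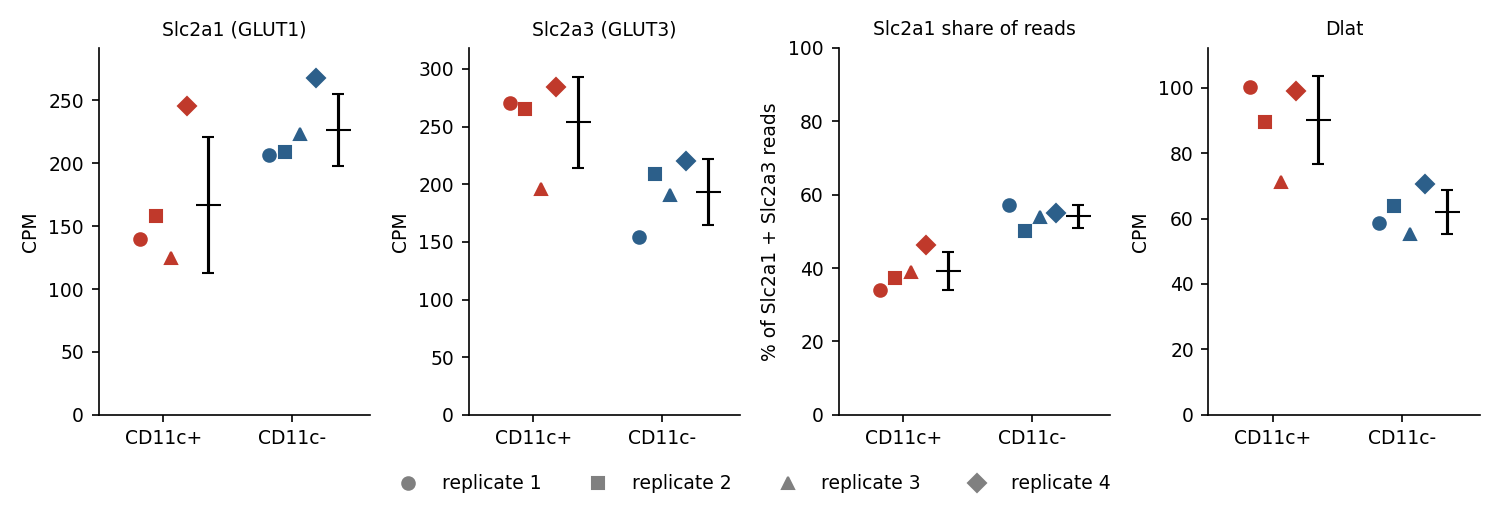
From left to right, Slc2a1 and Slc2a3 in CPM, the Slc2a1 percentage of the reads of both transporters, and Dlat in CPM, for CD11c+ (red) and CD11c- (blue) libraries; marker shapes give the replicate number and black bars the mean ± SD of 4 libraries. The transporter share is at most 46.4% in CD11c+ libraries and at 50.0% or above in CD11c- libraries, and Dlat does not overlap either.

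Hexokinases trap glucose by phosphorylation. Hk1, the constitutive form, stood at 181, 220.2, 126 and 179 CPM in CD11c+ cells and at 99.7, 169, 147 and 178 CPM in CD11c- cells, with a log2 fold change of 0.25 (SE 0.20, adjusted p = 0.991). Hk2, the form that activation and HIF-1 induce in many cells, had 15.1, 13.6, 13.5 and 22.8 CPM and 5.38, 22.6, 8.46 and 17.4 CPM, with a log2 fold change of 0.27 (SE 0.44, adjusted p = 0.992). The ranges of both genes overlapped, and without CD11c- library 1, the lowest for both, the log2 fold changes were 0.094 for Hk1 and -0.0031 for Hk2. Hk1 took 91.4% ± 2.37 of the reads of Hk1 and Hk2 in CD11c+ cells and 92.2% ± 3.15 in CD11c- cells (exact permutation p = 0.657, adjusted p = 0.730). In these effector cells the hexokinase reads thus came mostly from Hk1 on either side of the sort; per kb, Hk1 was at 33.5 CPM and Hk2 at 2.65. Hk3, a hexokinase of myeloid cells, had 0, 0, 22 and 14 reads and 0, 4, 11 and 1 reads, the most in CD11c+ library 3, where the neutrophil and monocyte lists were also highest; the part of such cells in it was not tested.

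In upper glycolysis, Gpi1, the phosphoglucose isomerase, was at 338, 423, 386 and 455 CPM in CD11c+ cells and at 405, 422, 425 and 513 CPM in CD11c- cells (log2 fold change -0.14, SE 0.12, adjusted p = 0.991). Phosphofructokinase, the committed step, came from 3 genes. Pfkp, the platelet form, was at 585, 734, 517 and 703 CPM against 530.3, 448, 521 and 642 CPM. Its log2 fold change was 0.25 (SE 0.14, adjusted p = 0.991), and the subsets overlapped. The liver form Pfkl was at 123, 168, 141 and 176 against 110.3, 139.9, 122 and 175 CPM, and the muscle form Pfkm at 3.52, 14.8, 1.25 and 6.70 against 3.53, 10.6, 5.83 and 7.22 CPM. Pfkp thus supplied most phosphofructokinase reads, 80.0% ± 1.62 in CD11c+ and 78.8% ± 3.22 in CD11c- cells (exact permutation p = 0.571, adjusted p = 0.730). Pfkfb3, whose product makes the allosteric activator of phosphofructokinase, ran from 38.9 to 72.4 CPM over the 8 libraries, and the related Pfkfb4 from 0 to 29 reads.

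Aldolase reads were almost wholly from Aldoa, the upper glycolysis gene of highest level per kb. It was at 923, 1199, 988 and 1640 CPM in CD11c+ cells and at 820.3, 1093, 912 and 1410 CPM in CD11c- cells (log2 fold change 0.17, SE 0.19, adjusted p = 0.991). Its share of the reads of Aldoa and the brain form Aldoc was 99.3% or more in every library. Aldoc had 9, 0, 9 and 17 reads and 32, 5, 10 and 10 reads. Tpi1, which interconverts the triose phosphates, varied more within a subset than between them, at 252, 387, 271 and 586 CPM against 236, 451, 300.2 and 512 CPM. Its mean was 374 CPM ± 153 in CD11c+ cells and 375 ± 128 in CD11c- cells.

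The lower pathway carries triose phosphates to pyruvate and yields ATP. Pkm2 had the highest counted level per kb in it, with the limit for sequence copies given below. It stood at 707, 981, 664 and 998 in CD11c+ cells and 656, 882, 720.3 and 998 CPM in CD11c- cells, with a log2 fold change of 0.04 (SE 0.16, adjusted p = 0.999). Libraries 2 and 4 were the high ones in both subsets. The counts sum over both splice forms of the gene, so the M1 and M2 enzymes are not told apart. Of the enolases, Eno3, known as the muscle form, had 10.2, 63.2, 35.8 and 42.6 CPM against 13.9, 75.5, 31.8 and 49.0 CPM. Library 1 was the lowest in both subsets. Eno1, the ubiquitous enolase, had only 1, 2, 2 and 17 reads against 2, 7, 3 and 5, and the neuronal Eno2 had 0 reads in all 4 CD11c+ libraries and 0, 4, 2 and 3 in CD11c- libraries. The Eno1 share of enolase reads was 2.32% ± 2.43 in CD11c+ and 1.84% ± 0.553 in CD11c- cells (exact permutation p = 0.914, also after adjustment).

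The low counts of several lower-pathway enzymes go with copies of their sequence elsewhere in the genome. Reads that aligned at more than 1 place were not assigned to a gene. Their summary row held 50.3% to 53.6% of the total over all counted and summary rows. A read may be counted there once for each place, so the share of reads is not known and may be lower. Gapdh, among the most abundant transcripts of most cells, ran from 8.37 to 17.0 CPM, and 82.5% of the 50-base windows of its transcript also occur in another GENCODE transcript, among them those of 213 pseudogenes. The share of such windows was 72.2% for Eno1, 68.0% for Pgk1 (11.5 to 24.0 CPM), 48.9% for the HIF target Bnip3 and 41.5% for Pgam1 (5.67 to 15.6 CPM), and 0% for Eno3. The absolute levels of Gapdh, Pgk1, Pgam1, Eno1 and Bnip3 are therefore uncertain, and shares that set Eno1 against Eno3 or Bnip3 against Bnip3l rest on unequally countable genes. Pkm2 (30.5%), Pdhb (30.3%), Ldhb (27.0%), Bnip3l (23.4%), Gpi1 (19.6%), Ldha (16.6%) and Aldoa (13.5%) are touched less. Only exact matches were counted, so copies that differ by a base within a window are left out of these shares.

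**Figure D3:**
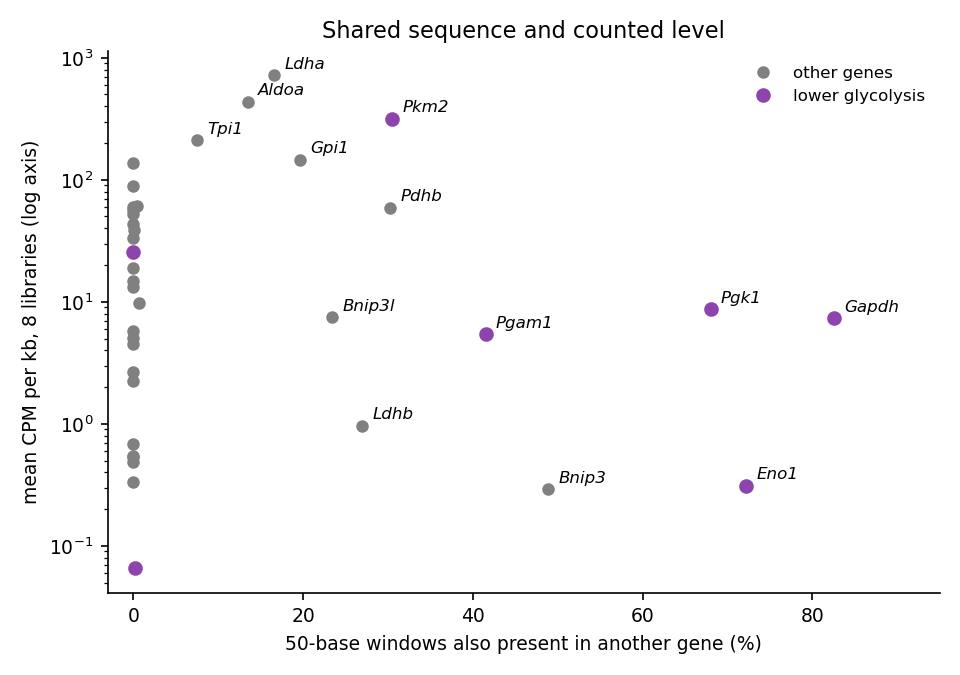
Mean CPM per kb over the 8 libraries (vertical log axis) against the percentage of 50-base windows of a gene's transcript that also occur in a transcript of another gene (horizontal axis), 1 point per gene, with lower glycolysis genes in purple; genes listed at 0 reads in every library are not drawn. Gapdh, Eno1 and Pgk1 lie far right at 68% or above and under 10 CPM per kb, while Ldha and Aldoa lie left and at the top.

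Lactate dehydrogenase A, which turns pyruvate into lactate, had the highest counted level per kb of all these genes, 717 CPM. Genes with many copies, such as Gapdh, cannot be ranked against it. Ldha was at 1168, 1510, 1206 and 1681 CPM in CD11c+ cells and at 1124, 1359, 1090 and 1729 CPM in CD11c- cells. Its log2 fold change was 0.07 (SE 0.16, adjusted p = 0.992), and libraries 2 and 4 were again the high ones in each subset. Ldhb, which favours the reverse reaction, had 0, 9, 5 and 11 reads against 0, 25, 9 and 4, so Ldha made up 99.7% or more of their reads in every library.

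Lactate leaves through MCT1, encoded by Slc16a1, and MCT4, encoded by Slc16a3. Slc16a1 was at 124, 144, 111 and 122 CPM in CD11c+ cells and at 80.4, 108, 122 and 102 CPM in CD11c- cells (log2 fold change 0.28, SE 0.16, adjusted p = 0.991). That value was 0.17 without CD11c- library 1 and 0.059 without the 3 libraries of fewest detected genes. Slc16a3, the form that HIF-1 induces in many cells, was at 9.97, 25.8, 27.6 and 56.1 CPM against 4.83, 21.0, 17.9 and 40.5 CPM (log2 fold change 0.51, SE 0.56, adjusted p = 0.991). In each subset library 1 held the least Slc16a3 and library 4 the most, and the log2 fold change ran from -0.0046 without CD11c+ library 4 to 1.02 without CD11c- library 4. MCT1 reads were in the majority, 81.5% ± 10.1 against 84.2% ± 9.55 (exact permutation p = 0.657, adjusted p = 0.730), with the lowest share in library 4 of both subsets.

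**Figure D4:**
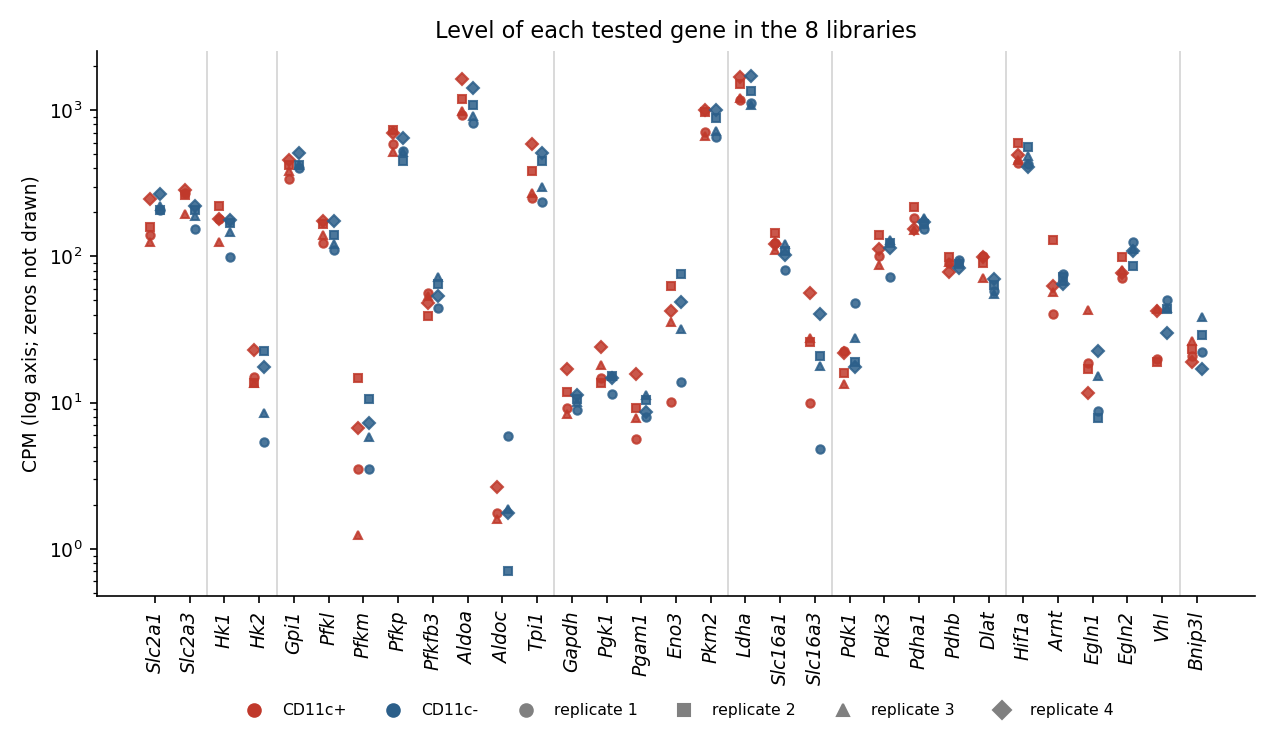
Level in CPM (vertical log axis; values of 0 are not drawn) of the 31 tested genes in each CD11c+ (red) and CD11c- (blue) library, with marker shapes for the replicate number and vertical lines between roles. Red and blue points overlap for 30 of the 31 genes, Dlat being the exception, and the low Gapdh, Pgk1 and Pgam1 stand beside the high Pkm2 and Ldha.

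The pyruvate dehydrogenase complex sends pyruvate into mitochondria as acetyl-CoA. Dlat, its acetyl-transferring E2 subunit, with 0 cores in its promoter window, was at 100.3, 89.6, 71.3 and 99.0 CPM in CD11c+ cells and at 58.5, 63.7, 55.3 and 70.5 CPM in CD11c- cells. Every CD11c+ library lay above every CD11c- library, though the closest pair was 71.3 and 70.5. The log2 fold change was 0.54 (SE 0.17), with an adjusted p of 0.923 by edgeR, 0.288 by DESeq2 and 0.407 by limma voom, so no tool called it. Dlat was the 1 gene of 31 whose subsets did not overlap, against 3.44% of all tested genes. Of the E1 subunits, Pdha1 was at 185, 217, 151 and 155 CPM against 154, 167, 184 and 171, and Pdhb ran from 77.8 to 99.5 CPM over all 8 libraries, with log2 fold changes of 0.07 and 0.00.

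Of the kinases that switch the complex off, Pdk3 was the most abundant per kb at 52.0 CPM, with 101, 140.0, 87.7 and 112 CPM in CD11c+ and 72.2, 123, 130.2 and 114 CPM in CD11c- cells. Pdk1, a HIF-1 target, was at 22.5, 16.1, 13.4 and 22.0 CPM against 47.7, 18.9, 27.6 and 17.4 CPM (log2 fold change -0.59, SE 0.35, adjusted p = 0.991). CD11c- library 1 stood far above the rest, and the Pdk1 share of Pdk reads was 39.7% there against 12.9% to 17.3% in the other CD11c- libraries and 10.3% to 18.2% in CD11c+ libraries (exact permutation p = 0.543 between subsets, adjusted p = 0.730). Without that library the Pdk1 log2 fold change was -0.21 and the mean shares differed by 0.0884 percentage points; limma voom with all libraries gave -0.23. Pdk2 had 0, 0, 0 and 7 reads against 1, 20, 12 and 20.

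HIF-1 and its oxygen sensors showed no called difference. Hif1a was at 438, 597, 461 and 493 CPM in CD11c+ cells and at 429.5, 565, 487 and 412 CPM in CD11c- cells, at a log2 fold change of 0.07 (SE 0.13, adjusted p = 0.992). Its partner Arnt ran from 40.7 to 129 CPM and the ubiquitin ligase subunit Vhl from 18.9 to 50.7 CPM, both with overlapping subsets. Hif1a is controlled largely at the protein level, which these counts do not measure.

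Among the prolyl hydroxylases, Egln2 (PHD1), with 6 and 1 cores in its promoter windows, was at 71.0, 99.2, 81.4 and 76.7 CPM in CD11c+ cells and at 125, 85.9, 112 and 109.6 CPM in CD11c- cells. CD11c+ library 2 lay above CD11c- library 2, and the other 3 CD11c+ libraries lay below all CD11c- libraries. The log2 fold change was -0.40 (SE 0.17, adjusted p = 0.991). Egln1 (PHD2), the main oxygen sensor of most cells, leaned the other way, at 18.6, 16.9, 42.9 and 11.7 CPM against 8.73, 7.84, 15.2 and 22.7 CPM (log2 fold change 0.73, SE 0.46, adjusted p = 0.991). Without CD11c+ library 3, which had the highest Egln1 and the highest myeloid marker sums, its log2 fold change was 0.20, and by limma voom with all libraries 0.43. Whether myeloid cells had a part in the Egln1 level of that library was not tested. Egln3 (PHD3), itself induced by hypoxia, had 0, 28, 6 and 17 reads against 0, 2, 7 and 7. The Egln1 share of the reads of all 3 was 20.7%, 14.0%, 34.2% and 12.8% in CD11c+ cells and 6.52%, 8.35%, 11.8% and 17.0% in CD11c- cells (exact permutation p = 0.114, adjusted p = 0.571). The means differed by 9.53 percentage points, or by 4.93 without CD11c+ library 3.

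Of the listed HIF targets outside metabolism, Vegfa and Bnip3 had few or no reads, and the level of Bnip3 is uncertain for its sequence copies. Hypoxia-induced genes of the wider list given below ran from 0 reads in every library (Adm) to a mean of 97.2 CPM (Wsb1). Vegfa, the angiogenic growth factor, had 0 reads in all 8 libraries, which allows up to 3 reads or 0.42 to 0.587 CPM per library, for counting error only. Bnip3 had 0, 5, 6 and 4 reads in CD11c+ and 0, 1, 5 and 4 in CD11c- libraries, too few to compare. Bnip3l, which like Bnip3 marks mitochondria for removal, was at 20.9, 23.4, 26.4 and 18.9 CPM against 22.3, 29.0, 38.4 and 17.1 CPM (log2 fold change -0.25, SE 0.29, adjusted p = 0.991). Without CD11c- library 3, the highest, the log2 fold change was -0.039. Bnip3 made up at most 3.96% of the reads of both genes in any library.

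Of a wider list of 104 other genes of these pathways, 80 were tested, 43 with a positive and 37 with a negative log2 fold change (CD11c+ minus CD11c-), and 0 were called by edgeR, DESeq2 or limma voom. The median log2 fold change was 0.03, and 3 of 80 genes had an unadjusted p under 0.05, against 4.7% of all tested genes, a share near that background. Plod1, a collagen lysyl hydroxylase counted among hypoxia-induced genes, was at 14.5, 24.8, 21.6 and 11.1 CPM in CD11c+ cells and at 6.13, 10.9, 5.46 and 5.46 CPM in CD11c- cells (log2 fold change 1.35, SE 0.41, adjusted p = 0.876). The lowest CD11c+ library lay just above the highest CD11c- library. Anxa1, an annexin abundant in myeloid cells and also on that hypoxia list, was at 3.52, 5.41, 21.7 and 6.24 CPM against 0.371, 2.10, 3.01 and 1.59 CPM (log2 fold change 2.37, SE 0.78, adjusted p = 0.945). Its highest value was in CD11c+ library 3, where neutrophil markers summed to 281 CPM and monocyte markers to 372, and their part in it was not tested. Pgls, of the pentose phosphate branch, was at 85.4, 123, 129 and 100.5 CPM against 152, 129, 126 and 164 CPM (log2 fold change -0.38, SE 0.16, adjusted p = 0.991), with overlapping subsets.

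The gene of highest CPM in each role of that list is given next, and all overlapped between subsets. Bsg, the chaperone that carries MCT1 and MCT4 to the membrane, was at 369, 351, 354 and 391.7 CPM in CD11c+ cells and at 309.5, 351, 357 and 421 in CD11c- cells. Tkt, the transketolase of the pentose phosphate branch, was at 571, 598, 530.0 and 676 against 519, 631, 567 and 758 CPM. Pik3cd, the leukocyte PI3 kinase subunit upstream of glucose uptake, was at 724, 884, 749 and 934 against 959, 900.5, 880.5 and 1088 CPM (log2 fold change -0.22, SE 0.11, adjusted p = 0.991). The HIF coactivator Ep300, the hypoxia-induced Wsb1, the galactokinase Galk1 and the phosphatase Pgam5 had log2 fold changes between -0.07 and 0.06. Mtor, a kinase that raises Hif1a translation, was at 37.7, 39.6, 39.9 and 44.4 against 33.0, 37.1, 29.2 and 35.8 CPM. It was, with Plod1 and Anxa1, 1 of the 3 of 80 listed genes without overlap, near the 3.44% of all tested genes, and its fold change was small (log2 0.26, SE 0.20, adjusted p = 0.991).

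The summed level of the glycolytic genes varied more among libraries of a subset than between subsets. The summed CPM of the uptake, glycolysis and lactate genes was 4939, 6382, 4906 and 7312 in CD11c+ cells and 4535, 5727, 4956 and 6953 in CD11c- cells, a mean of 5885 ± 1174 against 5543 ± 1062 (SD, n = 4 each). In both subsets libraries 2 and 4 were above libraries 1 and 3. Library 1 held the least Tpi1, Eno3 and Slc16a3 in each subset. Genes with a read numbered 10482 in CD11c+ library 1, 10783 in CD11c- library 1 and 10892 in CD11c+ library 2. Their summed levels were 4939, 4535 and 6382 CPM. Whether the number of detected genes bears on the summed level was not tested. Over the 31 tested genes, the mean log2 CPM centred on each gene's mean was -0.22, 0.10, -0.12 and 0.27 in CD11c+ libraries and -0.26, 0.07, 0.01 and 0.15 in CD11c- libraries. The median SD of log2 CPM within subsets was 0.33 for these genes and 0.38 over all tested genes.

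**Figure D5:**
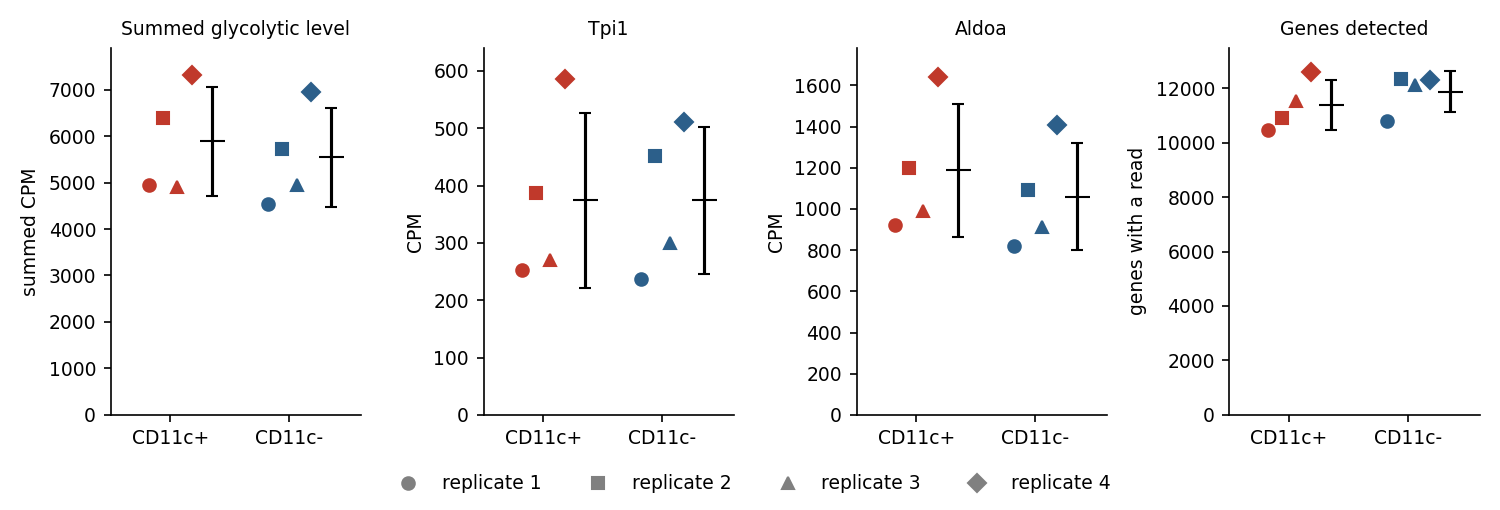
Summed CPM of the uptake, glycolysis and lactate genes, CPM of Tpi1 and Aldoa, and the number of genes with a read, for CD11c+ (red) and CD11c- (blue) libraries; marker shapes give the replicate number and black bars the mean ± SD of 4 libraries. Libraries 2 and 4 exceed libraries 1 and 3 in the first 3 panels in both subsets, and the subset means differ by less than 1 SD in all 4 panels.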

How the data were processed

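Messenger RNA of 8 sorted samples, 4 CD11c+ and 4 CD11c-, was amplified by a modified SMART-seq2 protocol, tagmented with Nextera XT and sequenced as 50 bp single reads, per the labels' protocols. Per the submitters' processing notes, bcl2fastq, TopHat2 2.0.8b and HTSeq were used with build mm9. Annotation and strand setting: not given in the sources used here, so genes that overlap or lie antisense to each other are not separable. The authors deposited raw counts, not normalized, of reads per gene symbol in 1 file per library. Summary rows were left out of the gene totals. Of uniquely placed reads, 63.1% to 67.1% were assigned to no annotated feature. Without the annotation and strand setting, it is not known how many of them lay inside genes.

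The whole table was tested in R 4.3.3 with edgeR 4.0.16 (filter by filterByExpr, TMM scaling, default glmQLFit and glmQLFTest, CD11c+ minus CD11c-, Benjamini-Hochberg adjustment over 10073 genes, threshold 0.05), after the steps were tested on simulated data. Standard errors (SE) belong to log2 fold changes. Isoform shares were compared by exact two-sided permutation of libraries where the genes together had at least 20 reads in every library. Lengths, and 50-base windows shared with other genes, came from GENCODE M21 (GRCm38), promoter windows from RefSeq; no coordinates were carried to mm9. Alternatives used limma 3.58.1 (voom with quality weights), DESeq2 1.42.0, other scalings and filters, and libraries left out. Within subsets, no pair of libraries had a chi-square per degree of freedom under 9.43, so no pair looked like repeat sequencing of 1 library. Each was counted as 1 sample, though this check cannot tell separate mice from separate preparations of the same cells. The genes and lists were chosen with earlier results of these data known. Values in every library are given for genes with an unadjusted p under 0.05 or no overlap, the gene of highest mean CPM per role and both genes of each share; of the wider list, genes with such a p and the gene of highest CPM per role are named, and Mtor was added after its values were seen.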

Additional observations from a re-analysis of the deposited data

Results flagged for a closer look

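In 82 groups of 4 libraries checked (each tested gene's CPM and each isoform share, per subset), 4 held 1 library whose gap to its nearest neighbour exceeded the 95% critical value of Dixon's test; chance marks about 1 in 20 groups. Hk2, the inducible hexokinase, was at 22.8 CPM in CD11c+ library 4, against 13.5 to 15.1 CPM in the other CD11c+ libraries. Pgk1, whose level is uncertain for its copies, was at 11.5 CPM in CD11c- library 1, against 14.8 to 15.3 CPM in the other CD11c- libraries. The Aldoa share of aldolase reads was 100% in CD11c+ library 2, against 99.81% to 99.84% in the other CD11c+ libraries. The Pdk1 share of pyruvate dehydrogenase kinase reads was 39.7% in CD11c- library 1, against 12.9% to 17.3% in the other CD11c- libraries.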

How the results depend on the processing

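No gene of the list was called under any of 18 settings, and the median log2 fold change ran from -0.04 to 0.14. The Slc2a1 share kept its direction under all 11 alternatives (-17.3 to -10.3 points), as did the log2 fold changes of Slc2a1, Slc2a3, Dlat and Egln2 under all 17. Other differences changed sign, among them those of Slc16a3 (in 1 of 17 alternatives) and of the Pdk1 share (in 2 of 11), and the cause was not tested. With 1 library left out at a time, log2 fold changes ran from -0.0031 to 0.63 for Hk2, -0.040 to 0.32 for Aldoa, -0.31 to 0.17 for Tpi1, -0.064 to 0.14 for Pkm2, -0.043 to 0.21 for Ldha, -0.0046 to 1.02 for Slc16a3 and -0.036 to 0.16 for Hif1a, and share differences, in percentage points, from -2.11 to 0.106 for Hk1, -0.131 to 2.37 for Pfkp, -0.695 to 1.08 for Eno1, -0.00463 to 0.081 for Ldha, -7.00 to 1.58 for Slc16a1 and -8.85 to 0.0884 for Pdk1. Without the 3 libraries of fewest detected genes, log2 fold changes were -0.11 for Hk1, 0.018 for Tpi1, -0.069 for Pkm2 and -0.041 for Hif1a, and share differences -0.0302 points for Aldoa and 0.356 for Pdk1. Tpi1 was at 0.0015 with library size alone and 0.16 by limma voom. Same-numbered libraries deviated together weakly (r = 0.0964, 0.167, 0.119 and 0.190), against r of -0.114 to 0.0276 for different numbers. Each library correlated best with its own number, a hint from the data and not the design. The labels do not state whether equal numbers share a mouse, so the main fit used no block. With a replicate block the SE fell for Ldha (0.16 to 0.066), Tpi1 (0.28 to 0.10) and Aldoa (0.19 to 0.065). It rose for Egln2 (0.17 to 0.19) and Vhl (0.31 to 0.33). An edgeR fit with the replicate block called 0 of these genes, with 5 at an unadjusted p under 0.05 (13 called and 611 at that p over all 10073 genes). The 5 were Slc2a1 (log2 fold change -0.48, adjusted p = 0.638), Slc2a3, Dlat, Aldoa (0.16, adjusted p = 0.799) and Slc16a3 (0.59, adjusted p = 0.816). Egln2 was not among them (unadjusted p = 0.060 in that fit). A sign-flip of the Slc2a1 share within numbers gave p = 0.125 by that exact test, the smallest that 4 pairs allow.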
